A study of Homo sapiens with 12 samples.

Results

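The response of MDA-MB-231 cells to a miR-145-5p mimic was measured after AGO2 had been silenced. MDA-MB-231 is an established breast cancer cell line. Of the 12 arrays of the series, 6 carried this comparison, 3 of the group sirnaAGO2 and 3 of the group sirnaAGO2+mimic145, chosen by their labels. Both groups had received a Dicer-substrate siRNA against AGO2 at 500 pM for 72 h. The second group had also received the mimic, Pre-miR-145-5p, at 5 nM, for which the protocol names a negative control oligonucleotide. The remaining groups, cntrl and mimic145, gave the same comparison without the AGO2 silencing and were used to set the effect against that in control cells. For them the protocol names a negative control siRNA, also at 500 pM for 72 h. RNA was read on single-color exon arrays, and each slide held both arrays of one replicate number. Nothing in the labels says whether the replicates were separate cultures, so the p-values measure the spread between these arrays, which may be technical.

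MicroRNAs are short RNAs that an Argonaute protein carries as the guide of the RNA-induced silencing complex. The guide pairs through its seed with sites mostly in the 3′ UTR of messenger RNAs, which lowers translation and often the amount of the message. Of the 4 human Argonautes, AGO2 is the one that can also cut the paired message, while AGO1, AGO3 and AGO4 can carry guides as well. miR-145-5p is known as a tumor suppressor whose described targets include regulators of actin, adhesion and growth signaling. The mature sequence is shown because the transfected mimic supplied this guide, with the seed, bases 2 to 8, in capitals:
hsa-miR-145-5p: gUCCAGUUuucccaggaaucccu
It lies on the plus strand at chr5:149430661-149430683 of GRCh38.p14, in the RefSeq annotation of the gene MIR145. Among 2370 mature human miRNAs of the same table, 1 had this seed, miR-145-5p itself.

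AGO2, the target of the siRNA, was examined first. Its level, the mean normalized log2 intensity over 19 probes, was 8.35, 8.44 and 8.42 on the sirnaAGO2 arrays and 8.27, 8.35 and 8.41 on the sirnaAGO2+mimic145 arrays. The cntrl arrays averaged 9.12 ± 0.10 (SD, n = 3) and the mimic145 arrays 9.40 ± 0.04. The 6 silenced arrays thus lay below the other 6, with overlap between the silenced groups. Silenced cells without the mimic kept 61.0% of the AGO2 signal of cntrl (adjusted p = 0.00492, limma). Those with the mimic kept 48.1% of the signal of mimic145 (adjusted p = 0.000783, limma). The two-sided exact permutation test of 3 arrays against 3 gave p = 0.1 in each case, the smallest it allows. These are array signals at the end of the treatment and no measure of AGO2 protein, which the study examined by western blot in the conditions of its migration assay. The silenced arrays and the other arrays lay on different slides, so slide and silencing cannot be told apart. Between the silenced groups AGO2 differed by -0.06 (adjusted p = 0.607), and neither AGO1 (-0.08), AGO3 (-0.16) nor AGO4 (0.07) passed the test.

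**Figure D1:**
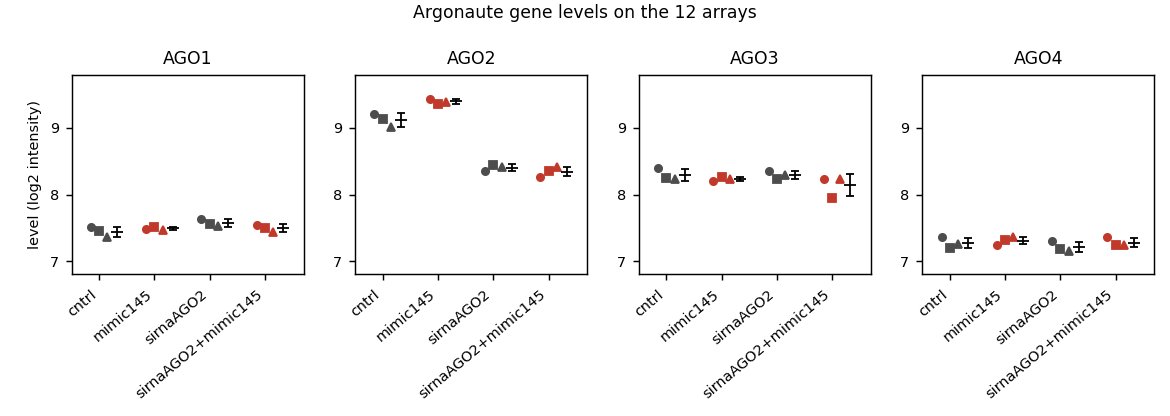
Levels of the 4 Argonaute genes on each of the 12 arrays, as log2 intensity, with the mean ± SD of 3 arrays beside the points; red points had the mimic, and circles, squares and triangles are replicates 1, 2 and 3. AGO2 sits at 8.27 to 8.44 on the 6 silenced arrays and above 9 on the other 6, while the levels of its paralogs overlap or lie close together.

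The line's own markers were present: VIM, CD44, AXL, CAV1 and KRT18 were well above background on all their probes on the 6 arrays, as were 29 of 31 probes of EGFR and 10 of 13 of KRT8. Of the luminal and epithelial markers, PGR and FOXA1 had no probe above background on all 6 arrays, ESR1 had 4 of 14, ERBB3 4 of 29 and CDH1 5 of 16, but EPCAM had 7 of 10 and GATA3 6 of 6. Between 60.5% and 74.1% of the spots of these 6 arrays were well above background, and in each of the 3 replicate pairs the share was lower with the mimic (67.9% after 71.0%, 60.5% after 69.1%, and 70.8% after 74.1%). On every slide the array with the mimic took the second position, so that slide position and mimic cannot be told apart.

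With the mimic in AGO2-silenced cells, 553 genes fell (3.03% of 18252 tested) and 774 rose (4.24%), by limma with a threshold of 0.05 on the Benjamini-Hochberg adjusted two-sided p. In total 1327 genes passed (7.27%), and for every one of them the 3 replicate pairs had differences of the same sign. The test favors genes whose pairs agree, so this is no added evidence. The median size of the change was 0.47 on the log2 scale for falls and 0.48 for rises, against a median standard error of 0.099 and a median over all genes of 0.02. A fall of more than 1 was measured for 30 genes and a rise of more than 1 for 8. Of the falling genes with at least 3 probes, 232 of 465 were lower on every probe, and 320 of 412 rising genes were higher on every probe.

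The falls and the rises differed in signal. The median brightness of the genes on the sirnaAGO2 arrays was 8.37 for falling and 6.94 for rising genes, against 8.04 for all genes. The 4563 dimmest genes held 374 of the 774 rises and 106 of the 553 falls, while the 4563 brightest held 134 rises and 137 falls. The part of background signal in the rises of dim genes was not tested. These counts rest on the spread shared by all 12 arrays: in a limma fit of the 6 silenced arrays alone 0 genes passed (4624 at an unadjusted p under 0.05), as with the methods' t-test after adjustment (2600 before it). Leaving out all arrays of replicate 2 or of replicate 3 also left 0 (2824 and 3505 before adjustment).

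Among the 10 largest falls were FSCN1, GMFB and SWAP70, genes of the actin cytoskeleton. FSCN1, which codes for the actin-bundling protein fascin, had a level of 7.67, 7.67 and 7.57 on the sirnaAGO2 arrays and of 6.06, 6.39 and 5.86 with the mimic. The groups did not overlap, as for 10.2% of all genes downward and 13.9% upward, and the fall was 1.53 on the log2 scale (SE 0.12, adjusted p = 0.00118), which left 34.5% of the signal. Since 4 of its 7 probes stayed at background on all mimic arrays, these values are limited by background and may understate the fall. GMFB, a member of the cofilin-related family that acts on branched actin, went from 9.83, 9.67 and 9.98 to 8.38, 8.29 and 8.82, without overlap and lower on 7 of 7 probes. SWAP70, an actin-binding protein in phosphoinositide signaling, went from 9.31, 9.28 and 9.11 to 8.09, 7.95 and 7.81, a tight set of pair differences between -1.33 and -1.22. ABRACL, a small protein related to actin regulators, fell by 1.29 (SE 0.09, adjusted p = 0.000769).

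EIF2AK1, the heme-regulated kinase that slows translation by phosphorylating eIF2alpha, was measured by 16 probes, all of them lower. Its level was 9.89, 9.8 and 10.11 without and 8.86, 8.46 and 8.79 with the mimic. The groups did not overlap, and the fall was 1.23 (SE 0.08, adjusted p = 0.000769). DTD1, which removes D-amino acids from tRNA, fell by 1.21 from 11.07, 10.99 and 10.96 to 10.00, 9.79 and 9.61. ABHD17C, a depalmitoylating enzyme, fell by 1.3 with 2 of 3 probes lower. PIGF, which acts in the synthesis of glycosylphosphatidylinositol anchors, fell by 1.18 and MBOAT1, a lysophospholipid acyltransferase, by 1.07, the latter with a small difference in replicate 1 (-0.39) beside -1.27 and -1.56. ZNF99, a zinc finger gene, fell by 1.2, again least in replicate 1 (-0.37).

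**Figure D2:**
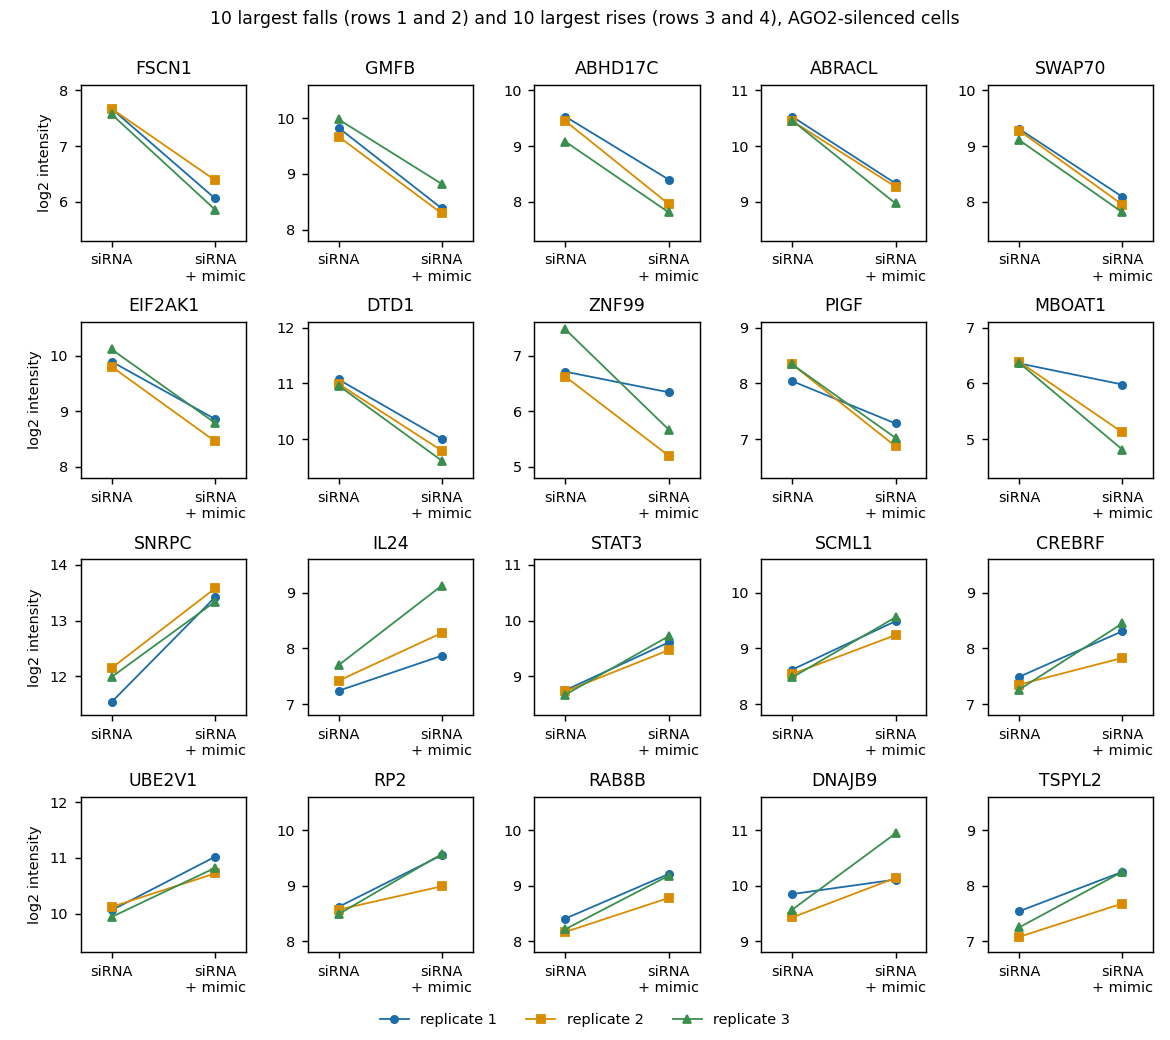
Levels of the 10 genes with the largest falls and the 10 with the largest rises, as log2 intensity, without and with the mimic in AGO2-silenced cells; each line joins the arrays of one replicate, and every panel spans the same number of log2 units. All lines run in the direction of their gene's change, which the choice of these genes required. The pair differences run from -1.80 to -0.37 for the falls and from 0.26 to 1.87 for the rises.

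Among the rises, SNRPC was the largest of the genes with at least 3 probes. It codes for a protein of the U1 small nuclear ribonucleoprotein, which recognizes 5′ splice sites, and had a level of 11.54, 12.15 and 11.99 without and of 13.42, 13.58 and 13.34 with the mimic. The groups were well apart on all 4 probes, and the rise was 1.55 (SE 0.12, adjusted p = 0.00124), a factor of 2.93. STAT3, the transcription factor downstream of interleukin 6 type cytokines, went from 8.75, 8.73 and 8.67 to 9.61, 9.47 and 9.72. With 25 of 26 probes higher it was the rise measured by most probes among these 10, and its size was 0.89 (SE 0.08, adjusted p = 0.00157). IL24, a cytokine of the interleukin 10 family, rose by 0.98 from 7.24, 7.42 and 7.70 to 7.87, 8.28 and 9.13, with the largest difference in replicate 3.

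The other large rises were smaller than 0.9. SCML1, a gene related to Polycomb proteins, rose by 0.88, CREBRF, a regulator of the CREB3 factor, by 0.83 and UBE2V1, a partner of the enzyme that makes lysine-63 linked ubiquitin chains, by 0.81. RP2, which acts on the small GTPase ARL3, rose by 0.81 and RAB8B, a GTPase of vesicle transport, by 0.79. DNAJB9, a co-chaperone of the endoplasmic reticulum, rose by 0.78 with unequal pair differences of 0.26, 0.71 and 1.37, and TSPYL2, related to nucleosome assembly proteins, by 0.77. The groups did not overlap in any of the 20 genes with the largest changes. Of these 20, FSCN1, GMFB, ABHD17C, ABRACL, SWAP70, EIF2AK1, DTD1, PIGF, SNRPC, STAT3, UBE2V1 and RAB8B also passed when any single array of the 12 was left out, which held for 38 of all falls and 21 of all rises.

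Most genes that the study lists as miR-145-5p targets still fell. The list has 36 genes that the study took from those lower with the mimic in control cells, on the cntrl and mimic145 arrays. The study, which counts 35, took genes that miRTarBase had already recorded as direct targets. The direction of the list in control cells is thus not independent evidence. The arms also share a spread per gene, so the share that passed here is not a like comparison with all genes. Of the 2006 genes lower in control cells by limma at the same threshold, 445 fell in silenced cells. In AGO2-silenced cells 27 of the 36 fell (75% beside 3.03% of all genes), 0 rose, and the median difference was -0.67 beside 0.02. All 36 estimates were below 0. Besides the genes above, the falls included TMEM9B (-1.07), a lysosomal membrane protein, TMOD3 (-1.06), which caps the slow-growing end of actin filaments, DENND10 (-1.01), CCDC43 (-0.98), the deubiquitinase USP46 (-0.96) and the junctional adhesion molecule F11R (-0.92). F11R went from 7.80, 7.84 and 7.89 to 7.16, 6.8 and 6.82, without overlap and on 12 of 12 probes (adjusted p = 0.00503).

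Among the growth and signaling members of the list, NRAS, one of the RAS GTPases, went from 9.98, 9.89 and 9.98 to 9.38, 9.24 and 9.25, a fall of 0.66 (SE 0.07, adjusted p = 0.00519) on 8 of 8 probes, and in control cells its difference was -0.60. YES1, a kinase of the SRC family, fell by 0.73 and PPP3CA, the catalytic subunit of calcineurin, by 0.80. CDK6, a cyclin-dependent kinase of the G1 phase, fell by 0.41 (adjusted p = 0.0341), and GOLM1, a Golgi membrane protein, by 0.57. Among the 9 that did not pass were NDRG2 (-0.18), MTMR14 (-0.21), YTHDF2 (-0.21), NIPSNAP1 (-0.22), MYO5A (-0.32), C11orf65 (-0.37), TSPAN6 (-0.39) and CEP19 (-0.42). Their adjusted p ran from 0.0539 for MYO5A to 0.523 for C11orf65.

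Other genes described as targets of miR-145-5p in earlier work but absent from that list showed little of this. The study's list held only genes that were lower with the mimic in control cells, so the shares of the lists are not a like comparison. Of 44 measured, 3 fell (6.82%) and 0 rose, with a median of -0.10. Among them were RTKN (-0.40, adjusted p = 0.0241) and the transcription factor KLF5 (-0.39, adjusted p = 0.0362). RTKN depended on its probes: with only those above background on all 12 arrays the difference was 0.05 and did not pass. MYC (-0.05), IRS1 (0.11), EGFR (-0.06), CDH2 (0.23), SMAD3 (-0.15) and CD44 (0.05) did not pass.

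Of 76 actin regulators measured, 7 fell (9.21%) and 3 rose (3.95%), with a median of -0.06. Beside FSCN1, GMFB, SWAP70 and TMOD3 the falls were TPM3 (-0.43), a tropomyosin that lies along the filament, ADD3 (-0.42), an adducin that links actin to spectrin, and SSH2 (-0.32), a phosphatase that activates cofilin. The rises were MYL9 (0.60), the regulatory light chain of myosin II, ARPC4 (0.45), a subunit of the Arp2/3 complex that nucleates branches, and RDX (0.32), which ties actin to the membrane. MYL9 went from 10.13, 10.47 and 10.52 to 10.62, 11.23 and 11.09, higher on 4 of 4 probes without overlap (adjusted p = 0.00587). MYL9, SWAP70, TMOD3, FSCN1 and GMFB also passed without any single array.

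Cell junction genes moved both ways. Of 49 cadherin, catenin, desmosome and tight junction genes, 4 fell and 4 rose (8.16% each way), with a median of 0.10. The falls were F11R, the desmosomal cadherin DSG2 (-0.91), the desmosomal plaque protein DSP (-0.66) and the tight junction protein OCLN (-0.44). DSG2 went from 8.54, 8.28 and 8.56 to 7.88, 7.27 and 7.50, and DSP, on 25 of 25 probes, from 8.25, 8.19 and 8.32 to 7.79, 7.31 and 7.67. The rises were CDH4 (0.56) and CDH11 (0.46), classical cadherins of neural and mesenchymal cells, CTNNB1 (0.49), which codes for beta-catenin, and NECTIN2 (0.40). CDH4 was higher on 16 of 16 probes, CDH11 on 13 of 13 and CTNNB1 on 18 of 18, and none of these 3 had overlapping groups.

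Of 61 immunoglobulin-type and related adhesion molecules, 4 fell (6.56%) and 5 rose (8.20%). HLA-DRA (-0.78), an MHC class II chain, L1CAM (-0.51), a neural adhesion molecule, SDC1 (-0.49), a syndecan, and CD99L2 (-0.29) fell, while NLGN3 (0.61), PDCD1LG2 (0.52), CHL1 (0.50), CD34 (0.48) and SDC2 (0.47), another syndecan, rose. Of these 5 rises, NLGN3 and CHL1 rested on 1 probe and PDCD1LG2 and CD34 on 2. Of 47 focal adhesion genes 3 fell (6.38% beside 3.03% of all genes), YES1, the kindlin FERMT1 (-0.39) and the integrin ITGB1 (-0.35). In the same list 2 rose (4.26% beside 4.24%), the caveolin CAV2 (0.39) and ITGA9 (0.32). Of 60 matrix genes, the laminin chain LAMC1 (-0.35) fell on 28 of 28 probes, and SPARC (0.42) and LAMC3 (0.35) rose. The matrix shares, 1.67% lower and 3.33% higher, were below those of all genes. Among 26 genes of epithelial-mesenchymal transition 1 passed (3.85% beside 7.27% of all genes), the epithelial repressor OVOL1 (0.34).

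Of 25 MAP3K, JNK and p38 genes 3 fell (12%) and 0 rose, with a median of -0.09. Under scaling by the 75th percentile this median was 0.05, while that of all genes moved from 0.02 to 0.11. MAP3K1, an activator of JNK, went from 7.59, 7.51 and 7.62 to 7.20, 6.52 and 6.85 (-0.72, adjusted p = 0.0311) and was lower on 19 of 20 probes. MAP3K8, also called TPL2, fell by 0.58 and MAP3K21 by 0.50, while MAP3K4 differed by -0.19 and did not pass (adjusted p = 0.181). In the RAS to ERK branch, 1 of 40 genes fell, NRAS, and 4 rose (10.0%). Among the rises were SPRED3 (0.46), SPRY4 (0.34) and DUSP5 (0.32), feedback inhibitors of the pathway.

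Of 38 apoptosis genes 3 fell (7.89%) and 0 rose. BIRC2, an inhibitor of apoptosis that also acts in TNF signaling, went from 9.72, 9.92 and 9.91 to 9.02, 8.88 and 9.24 (-0.81, adjusted p = 0.0142) on 9 of 9 probes. APAF1, the scaffold of the apoptosome, fell by 0.74 (adjusted p = 0.00938) on 23 of 24 probes and CASP4, an inflammatory caspase, by 0.30. The members that fell thus include an inhibitor and promoters of cell death. Among 59 genes of cell cycle entry, CCNE1 (-0.42), which codes for cyclin E1, and CDK6 fell and CDKN1B (0.26), which codes for the inhibitor p27, rose, while CCNG1 differed by -0.16 (adjusted p = 0.271). In this list 3.39% fell and 1.69% rose, beside 3.03% and 4.24% of all genes.

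Of 36 genes of fatty acid oxidation 6 fell (16.7%) and 0 rose, with a median of -0.08. They were ACSL4 (-0.52), which activates polyunsaturated fatty acids, the thiolase ACAA2 (-0.34), the peroxisomal enzyme HSD17B4 (-0.33), DECR1 (-0.30), which acts on double bonds, the carnitine carrier SLC25A20 (-0.30) and the dehydrogenase ACADSB (-0.29). DECR1 went from 10.75, 10.86 and 10.91 to 10.63, 10.51 and 10.48, which do not overlap, but its adjusted p of 0.0469 lay near the threshold. ETFB, the electron acceptor of these dehydrogenases, differed by -0.25 and did not pass (adjusted p = 0.0628). With the median over probes in place of the mean, 2 of the list fell and 1 rose.

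Of 31 genes of cholesterol synthesis and uptake, 4 rose (12.9%) and 1 fell, with a median of 0.14. CYP51A1 (0.49), MSMO1 (0.37) and NSDHL (0.27), enzymes of the late synthesis steps, and NPC1 (0.31), which moves cholesterol out of lysosomes, rose, each on all of its probes. ABCA1, which exports cholesterol, fell by 0.56 on 48 of 48 probes, from 8.88, 8.57 and 8.26 to 8.63, 7.82 and 7.60, with overlap between the groups and the least difference in replicate 1 (-0.26). With the median over probes 1 gene of the list rose. Of 75 respiratory chain subunits, COXFA4, formerly NDUFA4, fell by 0.81 from 14.09, 14.22 and 14.16 to 13.45, 13.50 and 13.09, NDUFB5 fell by 0.40, and NDUFA6 rose by 0.51. Of 77 mitochondrial ribosomal proteins MRPS18B (-0.69) and MRPL51 (-0.33) fell and MRPL19 (0.37) and MRPL50 (0.33) rose. The respiratory chain list had 2.67% lower and 1.33% higher, and the ribosomal list 2.6% each way. Both lay below the 3.03% and 4.24% of all genes.

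Of 46 ABC genes 4 fell (8.70%) and 0 rose: ABCE1 (-0.68), which recycles ribosomes, the mitochondrial transporter ABCB10 (-0.58), ABCA1 and ABCA10 (-0.42). ABCE1 went from 10.18, 9.81 and 10.09 to 9.57, 9.08 and 9.40 on 18 of 18 probes, while ABCD4 (-0.04) and ABCA11P (-0.27) did not pass. Of 63 coat and Golgi genes 5 fell (7.94%) and 0 rose: GOLM1, the clathrin adaptor subunits AP2B1 (-0.51) and AP1G1 (-0.44), the COPI subunit COPG2 (-0.49) and the GTPase ARF3 (-0.37). The median of these lists was 0.01 and -0.02, as near to 0 as that of all genes.

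Of 68 RAB genes 3 fell (4.41%), RAB38 (-0.64), RAB7A (-0.50) and RAB31 (-0.34), and 2 rose (2.94%), RAB8B and RAB36 (0.30). These shares were near the 3.03% and 4.24% of all genes. RAB38 depended on how its probes were joined, with a difference of 0.10 for their median. Of 369 solute carriers 18 rose (4.88%) and 8 fell (2.17%), both near the shares of all genes, led by falls of SLC25A30 (-0.93) and SLCO1B3 (-0.80) and by rises of SLCO4C1 (0.72) and SLC15A2 (0.57). SLC39A2, on 1 probe at background on all mimic arrays, was at least 1.51-fold lower. The filter kept this probe through arrays of another group, so no p-value is given.

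Of 52 interferon-stimulated genes measured 8 rose (15.4% beside 4.24% of all genes) and 0 fell, with a median of 0.13 beside 0.02. IFIT2, which inhibits translation of foreign RNA, went from 11.55, 11.34 and 10.88 to 12.34, 12.14 and 12.56, and its relative IFIT1 from 12.72, 12.19 and 12 to 13.41, 12.84 and 13.40, each on 1 probe and without overlap. The rise was 1.09 (SE 0.16, adjusted p = 0.0122) for IFIT2, 0.91 for IFIT1 and 0.69 for IFIT3, the last on 4 of 4 probes. The ubiquitin-like ISG15 rose by 0.61, OASL by 0.61, the exonuclease ISG20 by 0.58, the GTPase MX2 by 0.50 and OAS2, which senses double-stranded RNA, by 0.45. Replicate 3 held the largest difference for 6 of the 8 rises, as much as 1.67 for IFIT2 beside 0.79 and 0.80 in the others. In control cells 11 of the same 52 genes were higher and 7 lower with the mimic.

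Of 39 genes of the unfolded protein response and of ATF4 measured 7 rose (17.9%) and 0 fell, with a median of 0.12. Beside DNAJB9 they were SDF2L1 (0.73), HERPUD1 (0.65), TRIB3 (0.64), DDIT3 (0.60), HSPA5 (0.50) and PHGDH (0.37). SDF2L1 and HSPA5, the chaperone BiP, work in the lumen of the endoplasmic reticulum and HERPUD1 in the removal of misfolded proteins, while TRIB3 and DDIT3 (CHOP) are induced through ATF4, and PHGDH opens serine synthesis. HERPUD1 went from 10.50, 10.13 and 10.35 to 11.06, 10.58 and 11.29 on 8 of 8 probes, and DDIT3 from 10.25, 10.41 and 10.50 to 10.77, 10.85 and 11.34. Both sets lay apart from their controls, whereas the groups of HSPA5 overlapped (12.56, 12.20 and 12.98 without and 13.02, 12.64 and 13.58 with the mimic) although each pair was higher. Replicate 3 again held the largest difference for 6 of the 7, and in control cells 17 of the 39 were higher.

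**Figure D3:**
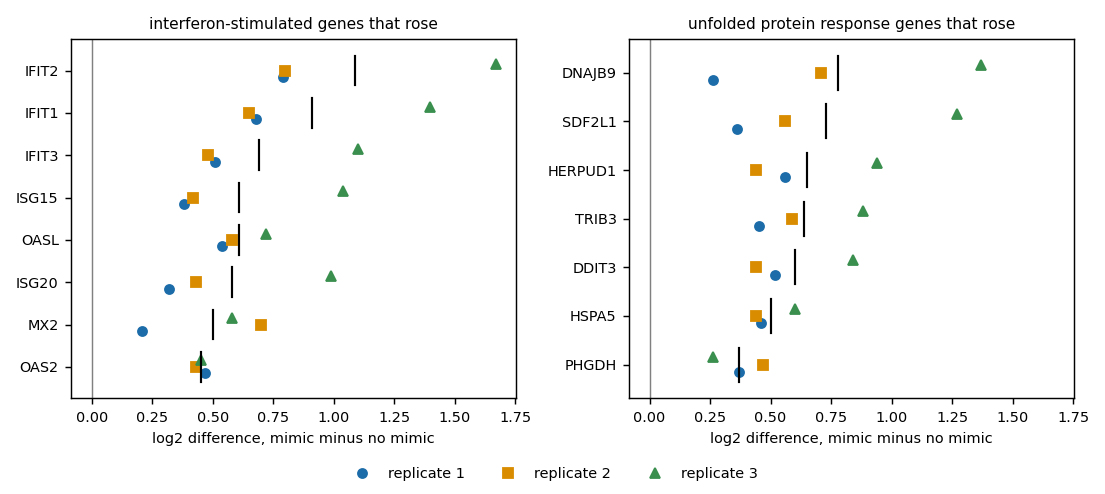
Log2 difference between the arrays with and without the mimic in AGO2-silenced cells, by replicate pair (circles, squares and triangles), for the 8 interferon-stimulated genes and the 7 genes of the unfolded protein response that rose; black bars are the mean of the 3 pairs. All points lie above 0, since the pairs of every gene that passed had the same sign. For 6 genes of each panel the triangle of replicate 3 lies farthest to the right.

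Of 45 cytokine, chemokine and NF-kappaB genes 3 rose and 3 fell (6.67% each way, beside 4.24% and 3.03% of all genes). The rises were IL24, STAT3 and TNF (0.49), and the falls the interleukin 1 receptor IL1R1 (-0.56), CSF2 (-0.55), which codes for GM-CSF, and LCN2 (-0.53), a siderophore-binding protein. CSF2 went from 9.98, 10.29 and 10.56 to 9.61, 9.75 and 9.82, which do not overlap, while LCN2 overlapped. Among 45 genes of proteases and their inhibitors 2 fell, ADAM10 (-0.45) among them, and the inhibitor TIMP3 (0.59) and the collagenase MMP1 (1.22) rose (4.44% each way). MMP1 rested on 1 probe whose level varied from 6.10 to 8 without the mimic (adjusted p = 0.0496).

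Of 40 genes of the small RNA pathway 2 fell (5.00%) and 0 rose. DROSHA, the nuclease that opens microRNA processing, went from 9.18, 9.17 and 9.36 to 8.67, 8.66 and 8.97 (-0.47, adjusted p = 0.0121) on 35 of 36 probes, and IPO8, an importin that binds Argonautes, fell by 0.43. DICER1 differed by -0.09, and TNRC6A, TNRC6B and TNRC6C, the partners of Argonaute in silencing, by 0.21, 0.23 and 0.23, without passing.

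Several large groups held few changes. Of 62 mitosis genes and 46 proteasome genes 0 passed in limma at the adjusted p (12 and 8 at an unadjusted p under 0.05), beside 7.27% of all genes. Of 84 cytosolic ribosomal proteins 2 fell (2.38% beside 3.03% of all genes), RPL39L (-0.66) and RPL22L1 (-0.57), both paralogs of the standard proteins. Estimates were below 0 for 66 of the 84 ribosomal genes (median -0.07), 42 of the 62 mitosis genes (-0.06) and 26 of the 46 proteasome genes (-0.02). Of 53 DNA replication genes 1 fell (1.89%), MCM2 (-0.42), a subunit of the replicative helicase. Of the 53 estimates 49 were below 0, and the median was -0.19 beside 0.02 for all genes. This median stayed below 0, at -0.13 to -0.20, with each of the other signal sources, filters and summaries tried.

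**Figure D4:**
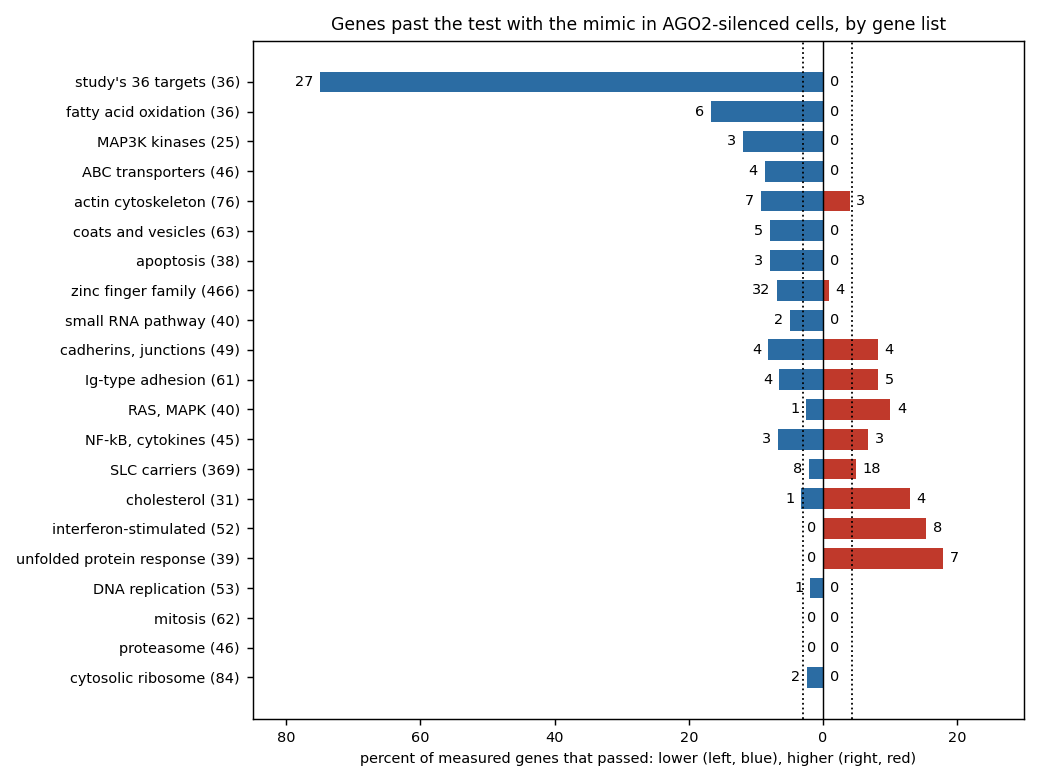
Percent of the measured genes of each list that passed the test with the mimic in AGO2-silenced cells, lower to the left in blue and higher to the right in red, with the number of genes at the end of each bar and the number measured in parentheses. Dotted lines mark the shares of all genes, 3.03% lower and 4.24% higher. The study's 36 targets, chosen for being lower in control cells, reach 75% on the left. The interferon and unfolded protein response lists reach 15.4% and 17.9% on the right.

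Of 466 measured genes with a ZNF symbol 32 fell (6.87%) and 4 rose (0.858%), with a median of -0.08 that turned to 0.02 under scaling by the 75th percentile, which moved the median of all genes from 0.02 to 0.11. The number of falls was 22 to 39 over the 6 other signal sources, filters and summaries, and the number of rises 3 to 24. ZNF675 went from 8.75, 7.95 and 9.19 to 7.59, 6.82 and 8.32 and ZNF714 from 9.11, 8.80 and 9.52 to 8.64, 7.40 and 8.33. Their pair differences lay between -1.40 and -0.48. ZNF737 (-0.97) and ZNF583 (-0.96) fell as well, and ZNF728, on 1 probe not above background with the mimic, was at least 1.59-fold lower. The filter kept the ZNF728 probe through arrays of another group, so no p-value is given. These ZNF genes have close copies, and which of the copies a probe reads is uncertain.

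Olfactory receptor genes, known mainly from sensory neurons of the nose, also stood among the rises. Of the family 58 genes had a kept probe, and 9 of these rose, each on 1 probe. A dim probe could be kept through the mimic arrays alone, as for OR11H1, OR4S1 and OR2AT4, so the number of rises follows in part from the filter and is not read against all genes. OR11H1, whose probe was not above background on any sirnaAGO2 array, had levels of 5.08, 5.34 and 4.88 without and 5.96, 6.48 and 6.08 with the mimic. It was at least 1.61-fold higher, and OR4S1 at least 1.62-fold. The filter kept both probes through arrays with the mimic, so these values are no independent evidence of a rise and no p-value is given. With only probes above background on all 12 arrays 3 of the family rose. The leukocyte markers, which an epithelial line mostly lacks (CD68 was above background on 6 of 7 probes), had estimates above 0 for 8 of 8 genes, and their summed level was 11.43 to 11.74 without and 11.78 to 12.34 with the mimic on the log2 scale. Of them CD14 rose, by 1.01 on the 1 kept of its 4 probes. PTPRC, the marker of all leukocytes, had 27 of 33 probes not above background on any of the 6 arrays and differed by 0.37 (adjusted p = 0.250). The part of this signal in the rises above was not tested.

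The effect of the mimic was then compared between AGO2-silenced and control cells, which share no arrays but were fitted together with a shared spread per gene. Of the 553 falls 445 were also lower in control cells at the same threshold, and of the 774 rises 351 were also higher, where 11% and 11.6% of all genes passed. A gene with a small shared spread passes more easily in both arms, so this overlap is not independent agreement. The median of the falling genes was -0.47 in silenced and -0.61 in control cells, and that of the rising genes 0.48 and 0.28. Of the falls 356 were larger in control cells, but of the rises 232 were. The silenced arm's own test defined both sets, which tends to inflate sizes in that arm and not in control cells. These medians and counts are therefore no even comparison of the arms. How much of the smaller median of the rises in control cells comes from this selection was not tested. The falls had the larger median in control cells in spite of it. The difference between the effects itself passed for 2 genes (0.011%), SAA2-SAA4 among them, while 3058 genes (16.8%) had an unadjusted p under 0.05.

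SAA2-SAA4, a readthrough transcript of neighboring serum amyloid A genes measured by 2 probes, went from 8.05, 8.14 and 8.74 to 7.54, 7.33 and 8.15. The groups overlapped, though the pair differences of -0.51, -0.81 and -0.59 were alike, and the fall of 0.64 compared with 1.72 in control cells (difference 1.08, SE 0.11, adjusted p = 0.035). Its probes may also read the single serum amyloid genes.

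Of the 5 genes that the study carried into its survival analysis, DECR1 and GFM2 (-0.39, adjusted p = 0.0365), a mitochondrial translation factor, fell in silenced cells. DOCK9, an activator of CDC42, differed by -0.11 (adjusted p = 0.417), VDAC3, a channel of the mitochondrial outer membrane, by -0.21 (adjusted p = 0.0944) and ETFB by -0.25. In control cells the differences were -1.01 for DECR1, -0.76 for GFM2, -0.89 for DOCK9, -0.43 for VDAC3 and -0.92 for ETFB. The difference between the arms had an adjusted p of 0.0614 for DECR1, DOCK9 and ETFB, 0.194 for GFM2 and 0.287 for VDAC3, so that none passed. PCDH1, a protocadherin, differed by 0.41 (adjusted p = 0.0929) in silenced and by 0.65 in control cells.

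Changes that exceeded those of control cells were also listed, without any passing the test of the difference. Among the rises these were ZNF683 (0.74 in silenced and -0.16 in control cells), HHIPL1 (0.72 and 0.01), CFAP300 (0.58 and -0.11), SLC15A2 (0.57 and -0.23) and TSPAN2 (0.52 and -0.17). Among the falls they were POLR3G, a subunit of RNA polymerase III (-0.77 and -0.21), ZNF623 (-0.63 and -0.04), NAF1, a factor in box H/ACA ribonucleoprotein assembly (-0.60 and 0.18), PRELID3A (-0.37 and 0.35) and NDUFAF5, an assembly factor of complex I (-0.32 and 0.18). The adjusted p of the difference ranged from 0.0695 for PRELID3A to 0.242 for ZNF623. PRELID3A and SLC27A3 (0.27 and -0.22) were the 2 genes that passed in opposite directions in the arms.

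**Figure D5:**
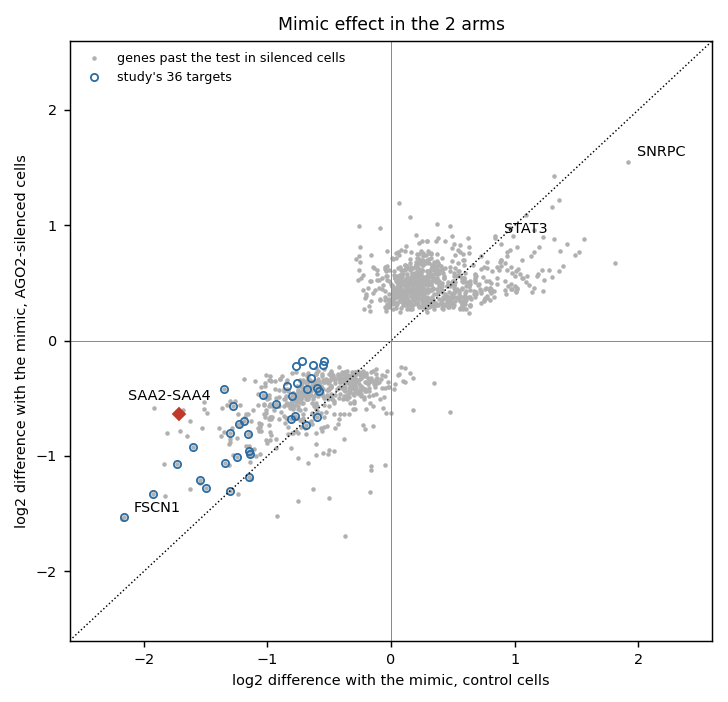
Log2 difference with the mimic in control cells (horizontal) and in AGO2-silenced cells (vertical) for the 1327 genes that passed in silenced cells (gray points), with the study's 36 targets as open blue circles and SAA2-SAA4 as a red diamond; the dotted line marks equal differences. The band without gray points around a vertical value of 0 follows from showing genes that passed. FSCN1 lies at -2.16 and -1.53, SNRPC at 1.92 and 1.55, and SAA2-SAA4 at -1.72 and -0.64.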

How the data were processed

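Total RNA was labelled with a single dye and hybridized by the authors to SurePrint G3 Human Exon arrays, which were read with Agilent Feature Extraction 10.7.3.1. The authors deposited the processed signal of each spot, an intensity with no scaling between arrays, and log2 values after quantile normalization, used here as an alternative. Each array had 420288 spots, of which 411345 were not controls. Outlier spots were left out, and none was saturated. Quantile normalization of the processed signals was followed by a log2 transform. Of 233164 probes, 209671 (89.9%) were assigned to 20708 genes through their transcript accession. A probe was kept if some group had it well above background on each of its 3 arrays (142919 probes), and a gene's level was the mean over its probes (median 5, with 2836 genes on 1 probe). Precision is limited by how few arrays there were.

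Group and, as a block, replicate number were fitted to all 12 arrays with limma 3.58.1 (lmFit and eBayes) in R 4.3.3 with the package data.table (1.17.8). The plots used Python 3.11.15, matplotlib 3.10.9 and pandas 2.3.3. The replicate numbers come from the labels, and the methods name a paired test, so the numbers were taken as pairs. Deviations from the group means correlated by 0.148 to 0.576 for same-numbered arrays and by -0.497 to 0.201 for others. These ranges overlap, and deviations cancel out within a group, which by itself sets the others lower. The correlations are therefore no test of the pairing. The methods were tested on simulated data.

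The comparison and the gene lists were chosen with earlier results of these data known. Named are the 10 largest falls and rises among genes that passed, had at least 3 probes and moved alike in all pairs, up to 6 members of each list by size, the genes that the study names, the Argonautes, and for the difference between arms those that passed and 5 in excess each way. Other members named were chosen after their values were seen. The study's targets were matched by gene identifier to RefSeq (GRCh38.p14). Folds given as bounds set the brighter group's mean against, per array, the higher of the dim probe's level and the lowest level called well above background. Alternatives were normexp (offset 50), 75th percentile scaling, the authors' table, other filters, the median over probes, other blocks and fits, other thresholds, the methods' t-test, and omission of replicates and arrays. Seed sites in 3′ UTRs were not analysed here, and some members of the lists are counted but not reported here by name.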

Additional observations from a re-analysis of the deposited data

Results flagged for a closer look

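The effect of the mimic differed between AGO2-silenced and control cells for SAA2-SAA4, by the test of the difference in limma. The effect in silenced minus that in control cells was 1.08, with an adjusted p of 0.035. The direction was the same in both arms and the size smaller in silenced cells. The test of the difference called 0 genes when any single array was left out, apart from mimic145 replicate 2, without which it called 3.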

How the results depend on the processing

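For genes that passed, the call depended on the fit more than the direction did. Over the alternatives, 2 of the 5412 values of the named genes reversed for a gene that had passed. These were RTKN (0.054 with only probes above background on all 12 arrays) and RAB38 (0.10 with the median over probes). The threshold was lost by 2233 values and gained by 21. Estimates of some genes that had not passed also crossed 0 and are not in that count of reversals. Among these were CDH2 (-0.071 to 0.47) and AGO2 (-0.12 to 0.023). The cause of the lost and gained calls was not tested, apart from the fewer arrays or degrees of freedom of some fits.

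Falls and rises were 553 and 774, and 2 differences between arms. They became 856, 1333 and 150 with normexp, 475, 1916 and 2 with 75th percentile scaling (80.1% of changes higher, beside 58.3%), 681, 1354 and 33 with the authors' table (66.5% higher), 535, 498 and 5 without a filter (48.2%), 491, 1593 and 291 with only probes above background on all 12 arrays (76.4%), and 315, 746 and 3 with the median over probes (70.3%). The fit without the replicate block gave 55, 23 and 0, the slide as a block 151, 167 and 0, trend and robust variances 657, 702 and 109. In limma the arrays of the 2 groups alone gave 0 and 0 with the block (4624 at an unadjusted p under 0.05) and, chosen after seeing the data, 0 and 0 without the replicate block (2718). The methods' t-test gave 1109, 1491 and 1888 at its threshold and 0, 0 and 0 after adjustment, when AGO2 after silencing, at -0.71, no longer passed. At an adjusted p under 0.01 there were 50, 34 and 0, and with a difference over 0.5 also required 241, 348 and 2.

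Without one replicate or array, falls ranged from 0 to 882, rises from 0 to 1409, differences between arms from 0 to 3, and the AGO2 difference after silencing from -0.78 to -0.64, not passing without any one replicate or without sirnaAGO2 replicate 1. Falls and rises were 144 and 242 without replicate 1 and 0 and 0 without replicate 2 (2824 at an unadjusted p under 0.05) or 3 (3505). By array they were 344 and 480 without cntrl replicate 1, 324 and 439 without cntrl replicate 2, 370 and 490 without mimic145 replicate 1, 158 and 244, 43 and 40, and 43 and 33 without sirnaAGO2 replicate 1, 2 or 3, and 882 and 1409, 133 and 129, and 80 and 42 without sirnaAGO2+mimic145 replicate 1, 2 or 3. Of the genes that passed, 148 falls and 167 rises did so under all 6 other signal sources, filters and summaries. Signal over background limits the dim genes most.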

Other observations

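Some signaling lists held single changes. Of 39 genes of insulin, PI3K and mTOR signaling, PDPK1 (0.48), the kinase that activates AKT, and PIK3R3 (0.46), a regulatory subunit of PI3K, rose, and the receptor IGF2R fell by 0.40 on 46 of 47 probes. The shares, 2.56% lower and 5.13% higher, were near the 3.03% and 4.24% of all genes. PDPK1 went from 7.83, 7.92 and 7.90 to 8.32, 8.36 and 8.42 on 14 of 14 probes, with little spread within either group. Of 43 TGF-beta genes the activin receptors ACVR2B (-0.47) and ACVR1B (-0.34) fell (4.65% beside 3.03% of all genes). INHBA, an activin subunit, passed on 1 probe that was at background on all mimic arrays, so that no size or direction is given.

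Of 44 hypoxia and glycolysis genes the peptide hormone ADM fell by 0.60, from 9.25, 9.30 and 9.27 to 8.92, 8.69 and 8.42, and EPAS1 (0.37), which codes for HIF-2alpha, rose on 16 of 16 probes. That was 2.27% each way, below the 3.03% and 4.24% of all genes. Of 30 p53 target genes 1 passed (3.33% beside 7.27% of all genes), ZMAT3 (0.36). Of 55 histone genes 1 rose (1.82% beside 4.24% of all genes), H2AC16, on 1 probe. In the other direction, 45 of the 55 estimates were below 0, with a median of -0.14 beside 0.02 for all genes. Of 22 cytosolic tRNA synthetases 1 fell (4.55% beside 3.03% of all genes), LARS1 (-0.27).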
